A study of Mus musculus with 8 samples.

Results

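Lysosomal cathepsins, legumain and progranulin were examined in splenic CD4 T cells of mice with and without the aryl hydrocarbon receptor. The 9 genes were Ctsl, Ctsz, Ctsh, Ctsb, Ctsd, Ctss, Ctsc, Lgmn and Grn. Every probe set (a group of short array probes for 1 transcript region) annotated to one of these symbols alone was taken, which gave 16 of 22626 non-control probe sets. They are 9 of 12393 genes with such a probe set. The genes were selected on their KO minus WT differences on these same arrays, so those differences are described here without a test.

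The series held 8 Affymetrix MOE430A arrays, 2 in each of 4 groups. Wild-type C57BL/6 mice (WT) and mice lacking the receptor gene Ahr, backcrossed to C57BL/6 (KO), were given TCDD at 10 µg/kg or DMSO, both in corn oil and by intraperitoneal injection. TCDD is a dioxin and a potent ligand of the receptor. All mice were females of 8 to 12 weeks, spleens were taken at 24 h, CD4 cells were sorted by flow cytometry, and RNA of 4 animals was pooled for every array. Which part of Ahr was deleted is not stated in the labels. The free-text description of WT TCDD array 1 names the knockout, whereas its title, source and strain name the wild type, so values without it are given for several results.

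Cathepsins are proteases of endosomes and lysosomes, made as inactive precursors and activated at acid pH. Ctsl, Ctsz, Ctsh, Ctsb, Ctss and Ctsc encode cysteine proteases of the papain family, Ctsd an aspartic protease, and Lgmn legumain, a cysteine protease that cuts after asparagine. Grn encodes progranulin, a secreted glycoprotein that also reaches the lysosome, where it is cut into granulins. In the immune system these proteases are best known from macrophages, dendritic cells and B cells, where they degrade antigens and the invariant chain of class II molecules. Lymphocytes use some of them too, such as Ctsc, which activates the granzymes of cytotoxic cells.

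RefSeq promoter sequence (build GRCm38.p6) was matched by symbol for 7 of the 9 genes, with 8 start sites. The 250 bases upstream of the start are shown for 3 genes whose brightest probe set differed at least 2-fold (Ctsl, Ctsz, Grn) and, for comparison, for Ctsd and Ctss, whose genotype differences were small. Each is written in the direction of transcription with the matched motif letters in capitals.
Ctsl promoter, chr13:64370521-64370770, minus strand: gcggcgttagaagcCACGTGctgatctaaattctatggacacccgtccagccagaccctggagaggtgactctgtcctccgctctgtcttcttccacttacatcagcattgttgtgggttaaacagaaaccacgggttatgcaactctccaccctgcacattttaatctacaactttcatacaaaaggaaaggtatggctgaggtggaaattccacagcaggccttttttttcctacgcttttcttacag
Ctsz promoter, chr2:174439040-174439289, minus strand: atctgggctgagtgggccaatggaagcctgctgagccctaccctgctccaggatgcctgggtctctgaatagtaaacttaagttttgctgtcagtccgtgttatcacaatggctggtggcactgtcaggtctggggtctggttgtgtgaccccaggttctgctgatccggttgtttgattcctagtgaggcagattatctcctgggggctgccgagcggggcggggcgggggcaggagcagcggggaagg
Grn promoter, chr11:102430257-102430506, plus strand: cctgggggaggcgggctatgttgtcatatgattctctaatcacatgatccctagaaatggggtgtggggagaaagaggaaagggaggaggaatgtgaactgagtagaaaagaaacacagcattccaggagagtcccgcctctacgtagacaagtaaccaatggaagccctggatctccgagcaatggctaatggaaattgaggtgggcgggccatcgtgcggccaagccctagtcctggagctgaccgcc
Ctsd promoter, chr7:142387828-142388077, minus strand: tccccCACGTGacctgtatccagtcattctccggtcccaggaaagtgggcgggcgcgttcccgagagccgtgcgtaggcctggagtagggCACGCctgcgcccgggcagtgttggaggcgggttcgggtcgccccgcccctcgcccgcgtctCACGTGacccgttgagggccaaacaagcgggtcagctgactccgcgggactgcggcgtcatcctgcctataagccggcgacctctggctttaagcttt
Ctss promoter, chr3:95526536-95526785, plus strand: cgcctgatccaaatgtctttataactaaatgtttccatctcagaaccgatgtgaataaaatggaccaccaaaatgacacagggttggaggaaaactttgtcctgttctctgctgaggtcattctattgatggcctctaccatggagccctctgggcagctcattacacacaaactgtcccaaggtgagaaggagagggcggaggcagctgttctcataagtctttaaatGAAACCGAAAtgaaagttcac

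Both strands were searched for 5 motifs. CACGTG, the E-box core that lysosomal regulators such as TFEB share with other factors, was present upstream of 3 of the 8 start sites and of 6.02% of 32851 promoters. Ctsd held it at 245 to 240 and at 98 to 93 bases before the start, Ctsl at 236 to 231, and the second listed Lgmn start site at 49 to 44. A longer palindrome, CACGTG extended by GT before and AC after it, was in 0 of the 8 and in 0.24% of all. GCGTG, the core bound by the Ah receptor with its partner, was upstream of 3 of the 8 (Ctsd, Ctsc and Lgmn) and of 28.2% of all. GAGGAAGT, a core of the myeloid and B cell factor PU.1, was in the Ctsc window and in 2.44% of all. The core of interferon response elements, GAAA repeated after a gap of 2 bases, was in the Ctss window 21 to 12 bases before the start and in 2.98% of all. The Ctsz and Grn windows held none of these letters. A match describes the sequence and is not a bound site.

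All values below are log2 expression values, so a difference of 1 is a 2-fold difference. Levels of different probe sets cannot be set against each other, because probes differ in binding. As a landmark, the median probe set had a mean level of 6.13 over the 8 arrays.

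The 4 KO arrays read far above the 4 WT arrays for Ctsl, an endopeptidase. Its probe set 1451310_a_at read 10.06 and 10.03 on the KO DMSO arrays and 9.37 and 9.88 on the KO TCDD arrays. The WT arrays read 7.63 and 7.00 with DMSO and 6.94 and 6.97 with TCDD. The lowest KO array lay 1.74 above the highest WT array. Mean levels were 9.84 ± 0.32 for KO and 7.14 ± 0.33 for WT (SD over 4 arrays each), a difference of 2.70 (moderated SE 0.20), or 6.50-fold. In RNA from sorted cells in bulk, more cells of a type and more RNA per cell cannot be told apart, and this holds for each difference described here.

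Ctsz encodes cathepsin Z, a carboxypeptidase. Its brightest probe set, 1417868_a_at, read 8.61 and 8.31 with DMSO and 8.73 and 8.98 with TCDD in KO. In WT it read 6.74 and 5.89 with DMSO and 5.51 and 6.63 with TCDD. WT arrays were spread more widely than KO arrays, yet the groups stayed 1.57 apart. The difference was 2.46 (moderated SE 0.28), or 2.24 without WT TCDD array 1, and the other Ctsz probe sets gave 1.77 (1417870_x_at) and 1.67 (1417869_s_at). Both of these also had every KO array above every WT array.

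Ctsh encodes an aminopeptidase with endopeptidase activity. Its only probe set, 1418365_at, read 8.62 and 9.11 with DMSO and 8.36 and 9.39 with TCDD in KO. WT arrays read 6.59 and 5.90 with DMSO and 6.22 and 6.92 with TCDD. Mean levels were 8.87 ± 0.47 for KO and 6.41 ± 0.44 for WT (SD over 4 arrays each), a difference of 2.46, and the nearest KO and WT arrays were 1.44 apart. Within the 4 groups of 2 arrays the SD was 0.35 to 0.73, so the spread among arrays was wide but smaller than the distance between the genotypes.

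Progranulin had 3 probe sets, and they did not behave alike in WT. The brightest, 1438629_x_at, read 11.21, 11.25, 11.31 and 11.51 on the KO arrays (DMSO 1 and 2, then TCDD 1 and 2). WT arrays numbered 1 read 10.14 with DMSO and 10.35 with TCDD, whereas WT arrays numbered 2 read 8.88 and 8.86. Thus the WT arrays fell into high and low readings that followed the array number and not the treatment. The probe set 1456567_x_at showed the same split, at 8.15 and 8.52 on the arrays numbered 1 against 7.29 and 7.13 on those numbered 2, under KO values of 9.55 to 9.87.

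The remaining Grn probe set, 1448148_at, was tighter in WT, at 6.91 and 6.85 on arrays numbered 1 and 6.44 and 6.52 on arrays numbered 2, and read 8.58 to 9.05 in KO. The differences were 1.76, 1.92 and 2.15 for the 3 probe sets (moderated SE 0.34, 0.29 and 0.14). An _x_at suffix marks probe sets with some probes that may bind other transcripts. It is carried by both Grn sets with the wide WT spread. The Ctsz set 1417870_x_at carries it too, yet its WT SD was 0.29. The other Ctsz sets had a WT SD of 0.59 (1417868_a_at) and 0.39 (1417869_s_at). Whether such binding has a part in the Grn split was not tested. Without both WT arrays numbered 2 the difference of the brightest Grn set was 1.08, and without WT TCDD array 1 it was 2.03.

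**Figure D1:**
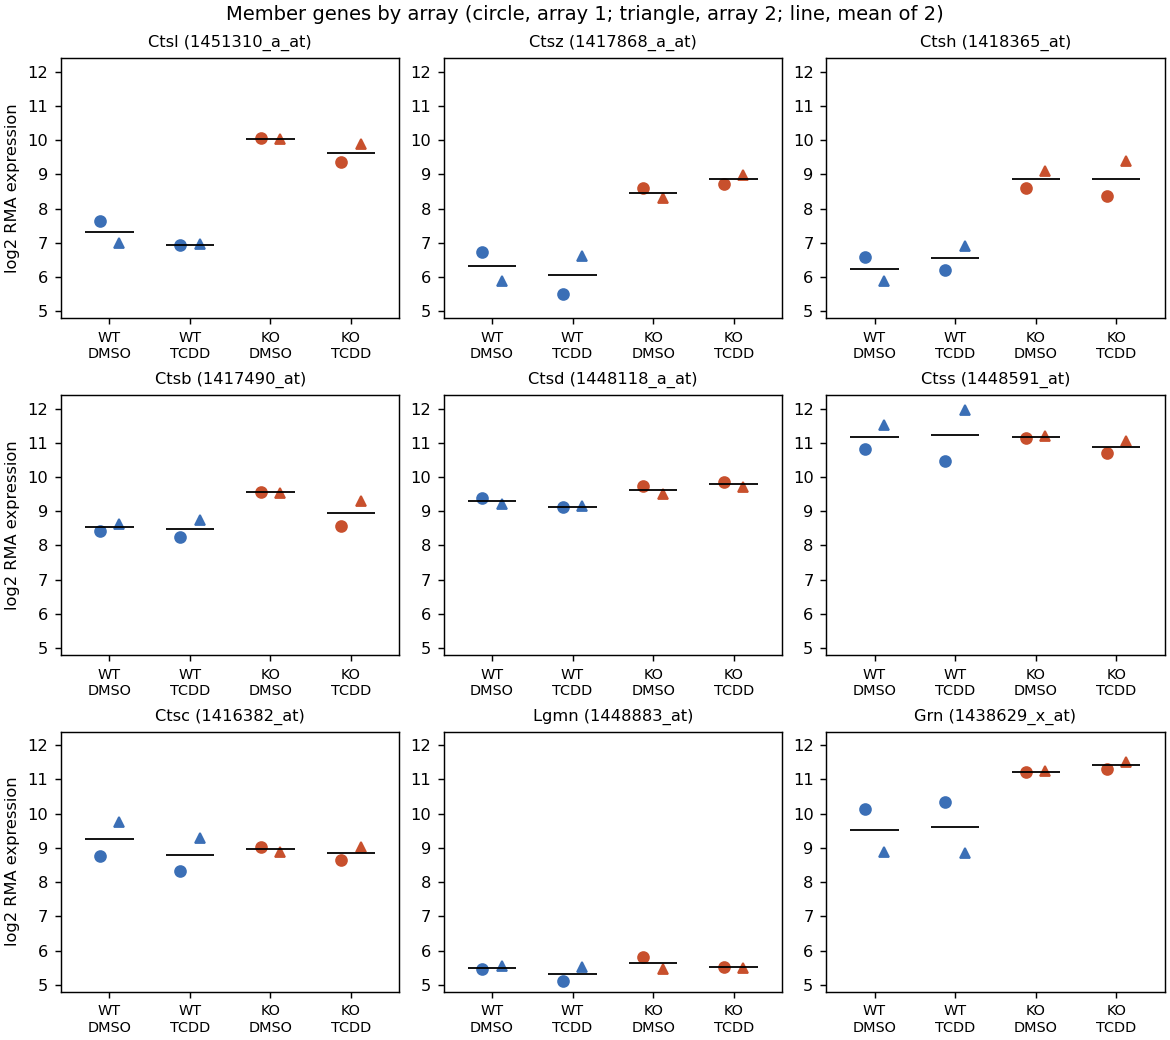
Log2 RMA expression (y axis) of the brightest probe set of each of the 9 genes in the 4 groups (x axis); circles are arrays numbered 1, triangles arrays numbered 2 and lines the mean of the 2 arrays. Ctsl, Ctsz, Ctsh and Grn show KO arrays well above WT arrays, whereas Ctss, Ctsc and Lgmn overlap. Levels of different panels are not comparable.

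Ctsb and Ctsd read higher in KO by smaller amounts. Ctsb encodes an endopeptidase that also removes dipeptides from carboxyl ends. Its brightest probe set, 1417490_at, read 9.56 and 9.54 with DMSO and 8.57 and 9.31 with TCDD in KO, against 8.43 and 8.62 with DMSO and 8.25 and 8.73 with TCDD in WT. The groups overlapped, because KO TCDD array 1 at 8.57 lay below 2 WT arrays. The difference was 0.74 over all arrays, 1.02 from DMSO arrays alone, 0.45 from TCDD arrays alone and 0.65 without WT TCDD array 1.

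The other 3 Ctsb probe sets differed by 0.31, 0.25 and 0.91, and their 8-array means lay under the landmark of 6.13. Of the 4 Ctsb sets, only the dimmest, 1417492_at, had KO arrays (5.29 to 6.22) clear of WT arrays (4.78 to 5.07). Ctsd, whose product is the main aspartic protease of lysosomes, read 9.51 to 9.86 in KO and 9.13 to 9.39 in WT. Its genotype gap was narrow, with 0.12 between the nearest arrays, and its arrays were close together (SD 0.15 in KO and 0.12 in WT, n = 4 each). The difference was 0.49 (moderated SE 0.10), or 1.40-fold.

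Ctss, Ctsc and Lgmn did not separate the genotypes. Ctss encodes cathepsin S, which trims the invariant chain in antigen-presenting cells. It read 11.15, 11.19, 10.69 and 11.05 on the KO arrays (DMSO 1 and 2, then TCDD 1 and 2). WT arrays read 10.82 and 11.52 with DMSO and 10.46 and 11.97 with TCDD, so WT held both the highest and the lowest reading. The difference was −0.17 (moderated SE 0.30).

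Ctsc, the dipeptidyl peptidase that activates granzymes, read 9.04, 8.88, 8.66 and 9.04 on the KO arrays in the same order. WT arrays read 8.76 and 9.76 with DMSO and 8.33 and 9.28 with TCDD. As for Ctss, the WT arrays numbered 2 read highest and WT TCDD array 1 lowest of all 8. The difference was −0.13 (moderated SE 0.28). Without both WT arrays numbered 2 it turned to 0.36 for Ctsc and to 0.38 for Ctss, and without WT TCDD array 1 it was −0.36 and −0.42. Leaving out WT DMSO array 2 alone gave 0.12 for Ctsc, and leaving out WT TCDD array 2 alone gave 0.09 for Ctss.

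Lgmn read 5.46 to 5.82 in KO and 5.11 to 5.55 in WT, all under the landmark, where background compresses differences. Its difference was 0.17 (moderated SE 0.12), and 0.07 without WT TCDD array 1, which was its lowest array.

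**Figure D2:**
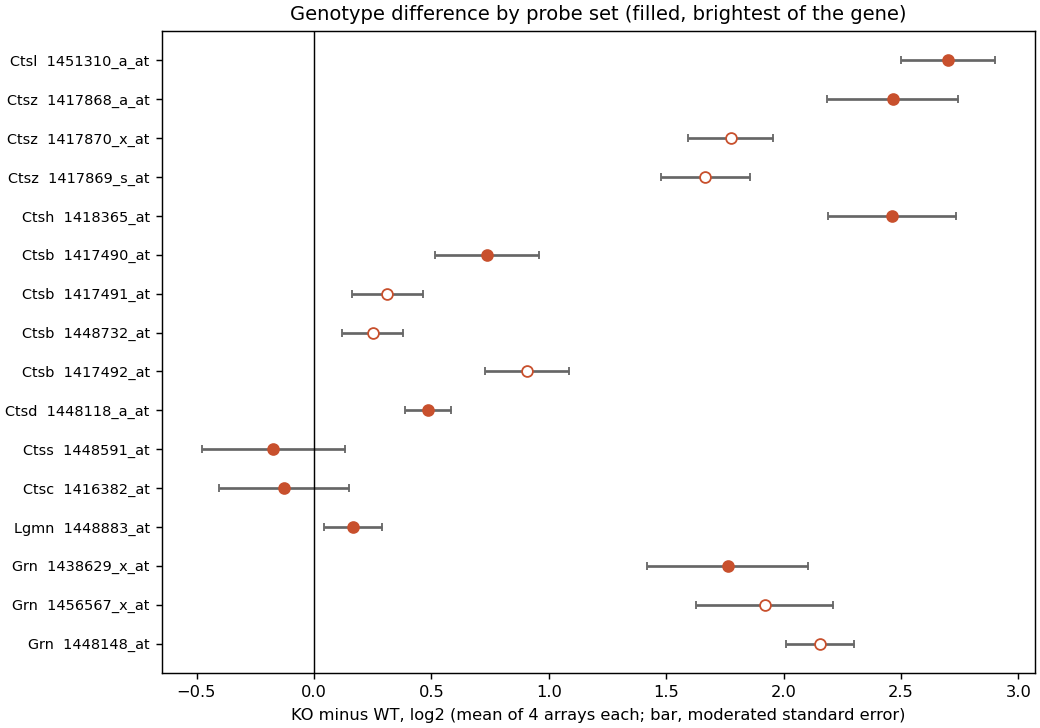
KO minus WT difference in log2 expression (x axis) for the 16 probe sets (y axis), with filled points for the brightest set of each gene and bars for the moderated standard error. Values run from −0.17 for Ctss to 2.70 for Ctsl. The 3 sets of Ctsz run from 1.67 to 2.46, the 3 of Grn from 1.76 to 2.15 and the 4 of Ctsb from 0.25 to 0.91.

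Over the 16 probe sets, 10 had every KO array above every WT array, 0 had every KO array below, and 6 overlapped. Among all 22626 probe sets, 5.67% had every KO array above every WT array and 6.67% every KO array below. Of the 16, 8 were at least 2-fold higher in KO, against 0.72% of all. By the brightest probe set of each gene, 5 of 9 genes had KO arrays clear above WT and 4 of 9 were at least 2-fold higher, against 6.28% and 0.775% of 12393 genes. Nothing is read from these counts, since the contrast was known when the genes were chosen. The median difference over the 9 genes was 0.74, beside 0.005 over all genes.

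The profiles of the 9 genes over the 8 arrays were compared by the root mean square difference between log2 values, each centred on its own mean. Ctsz and Ctsh were 0.39 apart, Ctsl and Ctsh 0.40, and Ctsl and Ctsz 0.43. Ctss and Ctsc, the genes highest on the WT arrays numbered 2, were 0.25 apart. Ctsd and Lgmn, with the flattest profiles, were 0.23 apart. The most distant pair was Ctsl and Ctss, at 1.53. Grn lay 0.68 from Ctsl, its nearest member. The 9 genes thus did not share a single pattern.

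**Figure D3:**
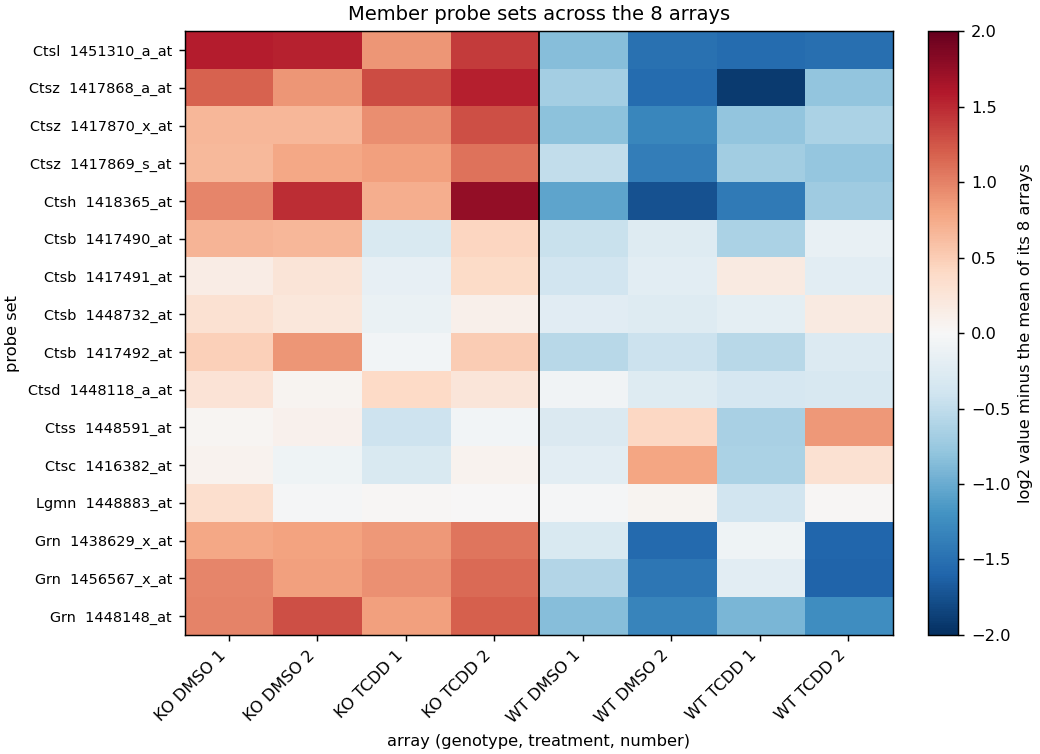
Each of the 16 probe sets (y axis) on the 8 arrays (x axis), as the log2 value minus the mean of its 8 arrays; red is above that mean and blue below, and the line parts KO from WT. Rows of Ctsl, Ctsz, Ctsh and Grn change colour at the line, whereas Ctss and Ctsc are red on the WT arrays numbered 2.

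Differences between whole arrays moved with part of this pattern. The WT arrays numbered 2 stood apart on the first principal component of all probe sets, at 49.2 and 40.4, against −36.2 to 9.10 for the other 6. The difference between the 3′ and 5′ actin control probe sets, a measure of RNA integrity, was 2.90 and 3.30 on them and 3.48 to 4.56 on the others, with the highest value on WT TCDD array 1. Of the 16 member probe sets, 5 read higher and 4 lower on the WT array numbered 2 than on number 1 in both treatments, against 24.4% and 40% of all probe sets. The 5 were Ctss, Ctsc, Lgmn and 2 sets of Ctsb (1417490_at and 1417492_at), and the 4 were the 3 of Grn and 1 of Ctsz. Some markers of other cells, named with their values known, also split by number in WT. On the WT arrays numbered 2, Gzma differed by 1.98 (DMSO) and 1.46 (TCDD), and Ccr9 by −1.29 and −1.36. The Gzma split was not confined to WT. On KO arrays 1 and 2 Gzma read 6.27 and 8.07 with DMSO and 7.20 and 8.53 with TCDD. There Ccr9 read 9.24 and 9.20 with DMSO and 9.22 and 9.77 with TCDD. The part of RNA integrity or of cell content in the member values was not tested. For Ctsl, Ctsz and Ctsh the genotype difference was about as large without both arrays numbered 2, at 2.55, 2.53 and 2.46.

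By likeness of profile, the 8 genes outside the set nearest to the median centred profile of the 9 were Ctsa, Drg2, Cdk1, Clptm1l, Mettl7a1, AW112010, Mea1 and Slc41a2. The nearest, at a root mean square difference of 0.13 over 8 arrays, was Ctsa, itself a lysosomal carboxypeptidase. It read 9.06 to 9.41 in KO and 7.97 to 8.52 in WT. The other 7 lay at 0.14 to 0.21, with KO minus WT differences between 0.67 and 0.80. The median profile of the 9 was closest to that of Ctsb (0.26) and Ctsd (0.30) among its members. It was far from Ctsl (0.92), Ctsh and Ctsz (0.87 each) and Grn (0.73). The 8 genes thus resemble this median and not each member.

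The gene lists used from here on (companion, class II and cell type markers) were chosen with earlier results of these data known. Their calls therefore describe these arrays and are not independent evidence. The companion genes of the lysosome were tested between genotypes with limma over all 22626 probe sets, with Benjamini-Hochberg (BH) adjustment and a threshold of 0.05. That fit called 631 probe sets, 2.79% of those tested, with 1.59% higher and 1.2% lower in KO (67.1% of calls were higher after median centring, against 57.1% here). By the brightest probe set of each gene, 1.9% of 12393 genes were called higher and 1.33% lower in KO. Of 89 measured companion genes, 10 rose and 2 fell, and their median difference was 0.07. Among 14 other cathepsins and cathepsin inhibitors, 3 rose and 0 fell. At an unadjusted p under 0.05, 5 of them were higher and 0 lower, beside 4641 of all 22626 probe sets in either direction. Cst3, or cystatin C, an inhibitor of cysteine cathepsins, rose by 1.19. Ctsw, a cathepsin of cytotoxic lymphocytes, rose by 0.95, and Ctsa by 0.87 (limma, BH adjusted p = 0.0423, 0.0236 and 0.0237). Of the other 11, the cathepsins Ctse, Ctsf, Ctsg and Ctsk differed by 0.09 or less. Cst7, a cystatin, differed by 0.73 with every KO array above every WT array, and Slpi, a secreted protease inhibitor, by 0.47, but neither was called (limma, BH adjusted p = 0.0723 and 0.0778).

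Among 32 lysosomal hydrolases and their cofactors, 4 rose and 1 fell, with a median of 0.21. Ifi30, a thiol reductase that unfolds antigens, rose by 1.03, and Gm2a, a cofactor of ganglioside breakdown, by 1.01. Neu1, a sialidase that forms a complex with Ctsa, rose by 0.66, and Pld3, a lysosomal nuclease, by 0.55 (limma, BH adjusted p for the 4 from 0.011 to 0.0463). Lipa, the lysosomal acid lipase, fell by 1.25 (limma, BH adjusted p = 0.0102). Its WT level was 8.75 ± 0.29 and its KO level 7.50 ± 0.18 (SD over 4 arrays each). The other probe sets of Gm2a (0.14), Neu1 (0.11 and −0.005) and Lipa (−0.53 and −0.075) were not called.

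Among 28 genes of the lysosomal membrane and proton pump, 3 rose and 1 fell. Cd68, a lysosomal membrane glycoprotein abundant in macrophages, rose by 1.87 (limma, BH adjusted p = 0.00424). Its WT level was 5.18 ± 0.14 and its KO level 7.05 ± 0.33 (SD over 4 arrays each). Tcirg1, a subunit of the proton pump, rose by 1.05, and Cln3, a lysosomal membrane protein, by 0.68 (limma, BH adjusted p = 0.0333 and 0.0427). Atp6v1c1, another pump subunit, fell by 1.18 (limma, BH adjusted p = 0.0444), while its other probe sets read −0.20 and −1.05 and were not called. Among 15 genes of sorting and transcriptional control, limma called 0, with a median of −0.01. At an unadjusted p under 0.05 there were 3, beside 4641 of all 22626 probe sets.

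Psap (prosaposin, a binding partner of progranulin), Sort1 (its sorting receptor) and Tfeb were picked for mention with their values already known. Psap levels were 10.04 ± 0.13 (KO) and 9.27 ± 0.40 (WT), and Sort1 levels 7.50 ± 0.16 and 7.21 ± 0.16 (SD over 4 arrays each). Neither was called, nor was Tfeb, with a difference of 0.04.

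The genotype fit took the 4 WT arrays as independent, although they deviated together by number (correlation 0.63 between DMSO and TCDD). Its p-values do not allow for this. The number of companion calls depended on which arrays were used. Leaving out KO TCDD array 1, KO TCDD array 2, WT DMSO array 2 or WT TCDD array 2 left 3 called genes each time, Lipa, Ifi30 and Cd68. Without both WT arrays numbered 2, limma called 1, Cd68 (1.82, adjusted p = 0.0457). All 12 kept their direction, with Ctsa at 1.02, Cst3 at 1.31, Neu1 at 0.69, Lipa at −1.03, Tcirg1 at 0.77 and Atp6v1c1 at −0.87. Without WT TCDD array 1, 9 of the 12 were still called.

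**Figure D4:**
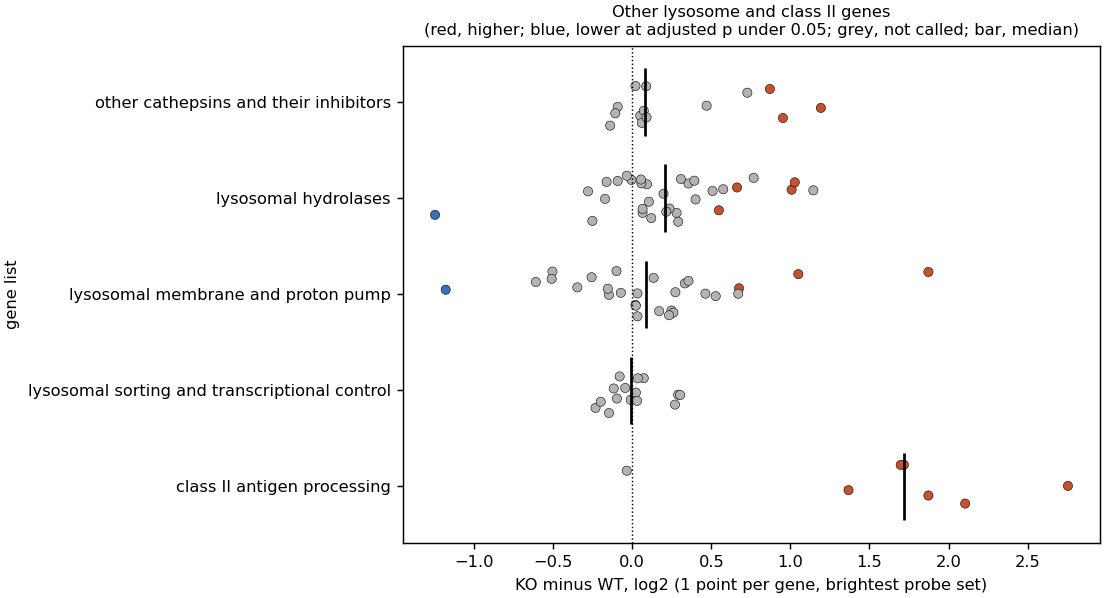
KO minus WT difference in log2 expression (x axis) for each gene of the 4 companion lists and the class II list (y axis); red points were called higher and blue points lower, grey points were not called, and bars are medians. Most companion genes lie near 0 (median 0.07 over 89), whereas 6 of 7 class II genes lie between 1.37 and 2.75.

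Class II antigen processing genes, whose products meet the cathepsins in endosomes, stood beside them. Of 7 measured, 6 rose and 0 fell (limma, BH), with a median of 1.72, in a list also chosen with earlier results known. Cd74, the invariant chain that cathepsins cut, rose by 2.75, H2-Ab1 by 2.10, the peptide-loading gene H2-DMa by 1.87 and H2-Aa by 1.72 (limma, BH adjusted p = 0.0206, 0.0125, 0.00793 and 0.00788). Ciita, the class II transactivator, was the exception, with a difference of −0.035. Its mean level lay under the landmark, where background compresses differences, so an unchanged level cannot be read from it. The other called genes were H2-Eb1 and H2-Oa. Without both WT arrays numbered 2, limma called 0 of the 7, with differences from 1.22 to 2.46 for the 6 and an adjusted p of 0.0561 to 0.137.

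Part of the markers of cells other than CD4 T cells also rose in KO, in lists likewise chosen with earlier results known. Of 22 macrophage and monocyte markers, limma called 7 higher and 0 lower in KO, and the log2 of their summed linear level was 11.9 to 12.5 in KO and 10.9 to 11.2 in WT. The called genes of largest difference were Tyrobp (2.48), Mpeg1 (2.27), Cd68 (1.87, also a companion gene) and C1qb (1.74). Csf1r rose by 1.27, while the macrophage antigen Adgre1 read 6.58 in KO and 6.42 in WT. Other markers above the landmark were not called either, such as Lyz2 (7.49 and 7.36), Cd14 (6.77 and 6.83) and Sirpa (6.90 and 6.93), named with their values known. Of the 22, 10 lay under the landmark, among them Itgam, Mrc1, Fcgr1 and Spic, and also the called genes Cd68 and C1qc.

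Of 17 dendritic cell markers, 8 were higher and 0 lower (limma, BH), with a summed level of 11.8 to 12.3 in KO and 10.6 to 10.9 in WT. The largest were Irf8 (2.97), Ccr9 (2.15), Bst2 (1.82) and Tcf4 (1.70), genes well expressed in plasmacytoid dendritic cells, while Itgax (7.01 and 6.64) and Zbtb46 (5.57 and 5.37) were not called. Pacsin1, a further plasmacytoid marker of this list, lay above the landmark and differed by −0.0075. Upb1 (0.69) and Lair1 (0.35) had every KO array above every WT array but were not called. Of 12 NK and CD8 T cell markers, 3 were higher (Nkg7, Klrg1 and Ccl5), summed at 11.5 to 12.3 in KO and 10.9 to 11.1 in WT. Prf1 (6.22 in KO and 6.46 in WT), Eomes (6.73 and 6.98) and Cd8a (5.62 and 5.77) had every KO array below every WT array. They were not called, and Cd8a and Cd8b1 lay under the landmark. Of 14 B cell markers, 2 were higher (Cd37 and Fcrla), summed at 10.6 to 11.1 and 10.4 to 10.5, with Cd79a, Ms4a1 and Pax5 under the landmark and Cd79b at 6.87 and 6.20. Of 6 erythroid markers, among them Hba-a1 and Alas2, limma called 0. At an unadjusted p under 0.05 there were 2, beside 4641 of all 22626 probe sets. In the last 3 lists 0 were called lower. The part of other cell types in the cathepsin and progranulin values was not tested.

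The CD4 label was checked against 13 T cell genes, of which all lay above the landmark. Cd4 levels were 8.16 ± 0.09 (KO) and 8.37 ± 0.28 (WT), and Cd3e levels 9.36 ± 0.17 and 9.53 ± 0.09 (SD over 4 arrays each), neither of them called. Cd6 was the only one called, higher by 0.82. Cd5 differed by 0.90 with every KO array above every WT array, and Trat1 by −0.835 with every KO array below. Neither was called (limma, BH adjusted p = 0.0644 and 0.109). The 2 Ahr probe sets read 6.74 and 6.52 in KO and 6.21 and 6.48 in WT, and since no source places their probes relative to the deletion, they check nothing.

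TCDD did not enter the choice of the genes, so its effect was tested. Limma called 0 of the 16 probe sets in WT and 0% of all 22626. At an unadjusted p under 0.05 there were 0 of the 16, beside 2.79% of all probe sets. In WT the brightest sets differed from solvent by −0.46 (Ctsc) to 0.33 (Ctsh), with Ctsl at −0.36 (95% confidence interval −0.95 to 0.23). The interval was narrowest for Ctsd, at −0.17 (−0.48 to 0.15), and widest for Grn, at 0.10 (−1.23 to 1.42). Over the 16, 10 were higher and 6 lower, the median was 0.06 and each adjusted p was 0.997 (limma, BH; n = 2 arrays each). Changes of 2-fold in Ctsz, Ctsh, Ctss, Ctsc and Grn lie inside their intervals in this fit. The WT arrays deviated together by number, with a correlation of 0.63 between DMSO and TCDD (0.12 in KO), which this fit leaves in the error. With array number as a term within each genotype, an analysis added with the data seen, Ctsc in WT had an interval of −0.87 to −0.04 around the same −0.46. Limma again called 0 of the 16. At an unadjusted p under 0.05 there was 1 (Ctsc, limma, BH adjusted p = 0.916), beside 1131 of all 22626 probe sets.

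In KO, limma again called 0 of the 16 and 0% of all 22626. At an unadjusted p under 0.05 there were 0 of the 16, beside 1.69% of all probe sets. Ctsb had the largest difference, −0.61 (95% confidence interval −1.25 to 0.03), and its 4 probe sets were all lower, at −0.61, −0.09, −0.28 and −0.45, none of them called. Without KO TCDD array 1, the lowest KO array, the brightest set differed by −0.24, and without KO TCDD array 2 by −0.98. With array number as a term within each genotype its interval was −1.13 to −0.09, and limma called 0 of the 16. At an unadjusted p under 0.05 there were 2, both of Ctsb (limma, BH adjusted p = 0.984), beside 897 of all 22626 probe sets. All 3 Ctsz probe sets were higher, at 0.40, 0.45 and 0.25, with intervals that include 0. Ctsl differed by −0.42, close to its value in WT.

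The difference between the genotypes in their response to TCDD was tested as an interaction. Limma called 0 of the 16 and 0% of 22626 (adjusted p = 0.998 for each member, limma, BH). At an unadjusted p under 0.05 there were 0 of the 16, beside 2.78% of all probe sets. The estimates, WT effect minus KO effect, ran from −0.64 for Ctsz to 0.57 for Ctsb. All 4 Ctsb probe sets were on the positive side, from 0.38 to 0.57, because they read lower after TCDD in KO and between −0.04 and 0.29 in WT. With array number as a term within each genotype, limma called 0 of the 16. At an unadjusted p under 0.05 there was 1 (Ctsb, 1417492_at, limma, BH adjusted p = 0.879), beside 1200 of all 22626 probe sets. For Ctsl the estimate was 0.06 (95% confidence interval −0.77 to 0.89).

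**Figure D5:**
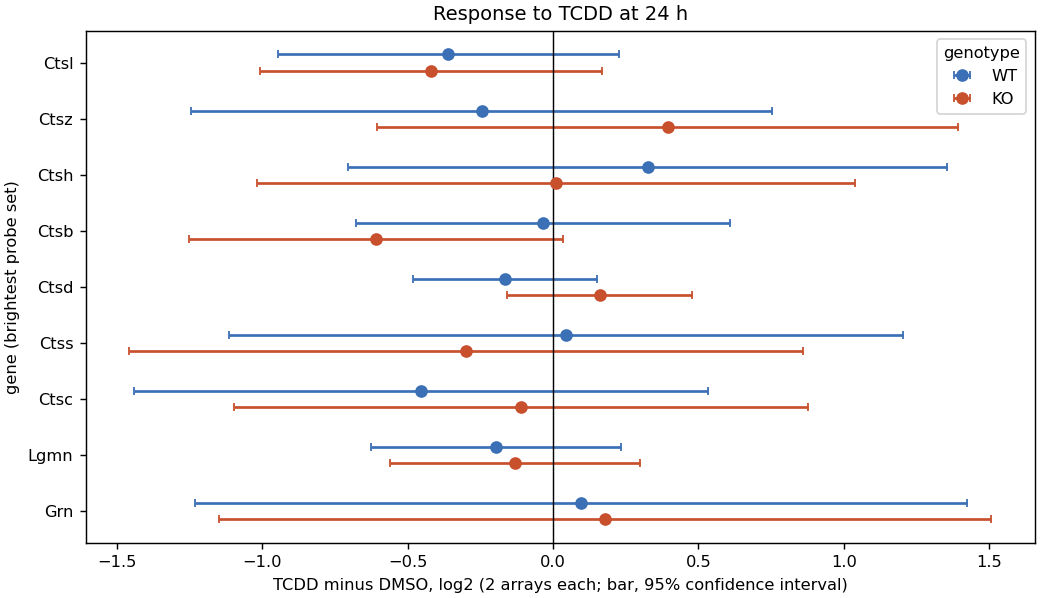
TCDD minus DMSO difference in log2 expression (x axis) for the brightest probe set of each gene (y axis) in WT (blue) and KO (red), with bars for the 95% confidence interval from 2 arrays each. In this fit, without array number as a term, every interval includes 0, and those of Grn and Ctss are the widest.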

How the data were processed

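The deposited log2 expression values of 8 MOE430A arrays were RMA values (background correction, normalization between arrays and 1 summary per probe set) that the authors made with affy, as the submitters' processing notes state. Versions were not stated. The log2 scale was checked on the values, whose array medians were 6.08 to 6.15. Arrays have no read depth, so their number limits the precision, and p-values measure only the spread between these arrays, labelled as biological duplicates.

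Of 22690 probe sets, 64 controls were left out. In the platform annotation 20380 had 1 symbol, 691 several and 1555 none. The 16 member probe sets matched RefSeq genes by Entrez identifier, all with the same symbol. A gene was represented by its brightest probe set.

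Limma (version 3.58.1, R 4.3.3) was fitted to all 22626 probe sets, for KO against WT with 4 arrays each, as the series' design text pools treatments, and for TCDD in a model of 4 group means, with BH adjustment. Fits were tested on simulated data. The member genes and gene lists were chosen with earlier results of these data known. By rule, all members, the 8 genes of nearest profile and up to 4 called genes per direction of each companion list were named. Of each marker list, up to 4 called genes and the first 2 listed were named. Further genes, such as Cst7, Slpi, Upb1, Lair1, Prf1 and Eomes, were named outside this rule, with their values known. Alternatives were a replicate block, over all groups or within genotype, quantile normalization, median centring, a filter on dim probe sets, other eBayes settings, array weights, a model of group means, array subsets and the mean of a gene's probe sets.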

Additional observations from a re-analysis of the deposited data

Results flagged for a closer look

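In groups of 4 arrays of 1 genotype, the gap of the most distant array was divided by the range of the group and set against Dixon's critical value at the 95% level. Of 32 such groups over the 16 probe sets, 3 were past it. The rate of about 1 in 20 holds for independent arrays and probe sets. Here each group mixes treatments, WT arrays deviated together by number, and some probe sets share a gene. Nothing is therefore read from the count. For Ctsl in WT the ratio was 0.913, with WT DMSO array 1 high at 7.63. For Ctsb (1448732_at) in WT it was 0.860, with WT TCDD array 2 high at 6.26. For Lgmn in KO it was 0.833, with KO DMSO array 1 high at 5.82.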

How the results depend on the processing

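Beside 631 called probe sets, and 10 higher and 2 lower companion genes, KO against WT gave 1604, 18 and 3 with array weights, 161, 3 and 1 in the model of 4 group means, 28, 1 and 0 without both WT arrays numbered 2, and 985, 13 and 2 after quantile normalization. From DMSO or TCDD arrays alone limma called 0 probe sets, and so 0 and 0 companion genes (1545 and 2832 probe sets at an unadjusted p under 0.05). Median centring gave 1 lower companion gene and moved the share of higher calls from 57.1% to 67.1%. With 1 array left out the counts were 109 to 667, 2 to 10 and 1 to 2. The median member difference (0.74) was 1.25 with dim probe sets left out, which drops Lgmn, 1.02 from DMSO arrays, 0.55 with the mean of all probe sets per gene, 0.90 without both WT arrays numbered 2, and 0.63 to 0.96 with 1 array left out.

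TCDD gave 0 called member probe sets in all 15 alternatives of each comparison, 1 of them, array number within genotype, added with the data seen. Signs of uncalled values turned for Ctsh in KO (0.01 to −0.01 with centring and −0.053 with quantile normalization), Ctsb in WT (0.076 with quantile normalization, 0.14 with the mean of probe sets), Ctsz in WT (0.10 with that mean) and Grn in the interaction (0.0117 with that mean, 0.084 with quantile normalization). With 1 array left out they spanned, in KO, −0.30 to 0.08 (Ctsc), −0.51 to 0.53 (Ctsh) and −0.31 to 0.05 (Lgmn). In WT they spanned −0.28 to 0.21 (Ctsb), −0.95 to 0.045 (Ctsc), −0.025 to 0.68 (Ctsh), −0.71 to 0.80 (Ctss), −0.81 to 0.32 (Ctsz), −0.65 to 0.84 (Grn) and −0.40 to 0.005 (Lgmn). In the interaction they spanned −0.84 to 0.15 (Ctsc), −0.20 to 0.83 (Ctsh), −0.26 to 0.38 (Ctsl), −0.41 to 1.10 (Ctss), −0.83 to 0.66 (Grn) and −0.27 to 0.14 (Lgmn). The cause was not tested.

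The replicate block gave 801 called probe sets, 12 higher and 2 lower companion genes and 0 member probe sets for TCDD. Deviations of same-numbered arrays correlated by −0.29 to 0.22 between genotypes, 0.12 within KO and 0.63 within WT, so the numbers do not pair the samples across all 4 groups, although the WT arrays went together by number. A replicate block within genotype also gave 0 called member probe sets.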
